A study of Mus musculus with 3 samples.

Results

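The 8 genes Fkbp5, Sgk1, Tsc22d3, Errfi1, Sult1a1, Ddit4, Per1 and Zbtb16, all known to respond to glucocorticoids, were followed across 12 cell classes, of 28676 genes in the deposited table. They were chosen by name after higher levels of such genes had been seen in these data, and their levels are counts per 1000000 (CPM) of the unique molecular identifiers (UMIs) summed over each cell class of each library. Since the levels themselves chose the genes, the differences from control below are a description and carry no test. Glucocorticoids, the steroid hormones that the adrenal gland releases under stress, bind a receptor inside the cell. In many tissues this receptor then moves to the nucleus, where it binds DNA and switches on a common set of genes. Its own gene is Nr3c1, and a related receptor, from Nr3c2, binds the same hormone with higher affinity. The receptor is held ready by a chaperone complex, and some of its targets feed back on it or on the signalling of the cell.

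The cells came from the medial vestibular nucleus (MVN), the brainstem nucleus that receives balance signals from the inner ear. C57BL/6 mice (C57BL/6J in the study's methods) had surgery on the right ear at postnatal day 20 and were killed 1 day later. The labyrinth was destroyed on that side in the unilateral labyrinthectomy (UL) group of 11 mice, whose ipsilateral (ULI) and contralateral (ULC) nuclei were sequenced apart. The control group of 10 mice had the tympanic bulla opened without UL. The record of each of the 3 samples nevertheless names labyrinthectomy as the treatment, and control was read from its source name and from the study's methods, so each ratio to control rests on that reading. Mice were pooled into 1 library per group, so a difference between libraries has no replicate check and carries no p-value. ULI and ULC were both set against the same control library, and a shift in that library would move both.

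The 3 libraries held 4816, 5062 and 4998 barcodes in control, ULI and ULC, and 27019650, 17428194 and 12768983 UMIs. Cells with at least 200 genes were kept, 4607, 4813 and 4544, with medians of 3177, 2100 and 931 UMIs. Clusters were named from marker genes, without the 8 genes having any part, and 12 classes with at least 20 cells in every library were compared. All defining markers of a class were seen in each library, except that 4 of 5 smooth muscle markers were seen in control. Neurons held 8 control cells and neutrophils 11, and they were not compared. Cells of 1 class often fell in different clusters by library: 64.6% of control microglia were in cluster 0, 56.2% of ULI microglia in cluster 8, whose leading genes include Cxcl10, Tnf and Il1b, and 84.1% of ULC microglia in cluster 14. Mature oligodendrocytes, newly formed oligodendrocytes, oligodendrocyte precursors and choroid plexus epithelium were split in a like way. Markers of choroid plexus epithelium, which made up 0.586%, 5.49% and 24.2% of cells in control, ULI and ULC, summed to 51.8, 204 and 1061 CPM in microglia. With choroid plexus, mitochondrial, ribosomal protein and haemoglobin genes left out of the totals, 162 of 162 ratios of the 8 genes to control stayed within their counting intervals. That step changes the totals alone and not the UMIs of the 8 genes, so it cannot show carry-over of their RNA between classes. Such carry-over is estimated at the end for Fkbp5, Sgk1 and Ddit4 in some classes. For Sult1a1 in mature oligodendrocytes it is given with the levels. No estimate is printed for Tsc22d3, Errfi1, Per1 and Zbtb16. In ependymal cells markers of choroid plexus epithelium stood at 24139.9, 2519 and 10115 CPM, and markers of their own at 5053, 3518 and 3421. In 2 of the 3 libraries the former stood higher. In the leptomeningeal fibroblasts of control, markers of mature oligodendrocytes stood at 8877 CPM. In vascular smooth muscle cells, led by Acta2 and Myh11, markers of pericytes stood at 53288, 28163 and 22313 CPM, above the 7858, 7688 and 10193 of their own in each library. Whether pericytes in that class bear on its values was not tested. Ddx3y, on the Y chromosome, stood at 106, 185 and 188 CPM over all cells of control, ULI and ULC, and Xist, made from the inactive X of females, at 97.1, 111 and 64.5, and the part of the sexes pooled was not tested. Barcodes are running numbers in the deposited table, and barcodes shared between libraries could not be counted.

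The promoters are shown first, since the receptor acts through DNA elements, some of which lie close to start sites. Sequences are from RefSeq on GRCm38.p6, the assembly of mm10, 250 bases before to 50 after a start site, 5′ to 3′ on the strand of the gene. They were found for 7 genes in 16 windows. Zbtb16 is named only. Both strands were searched. Capitals mark the glucocorticoid response element, which is AGAACA, 3 bases of any kind and TGTTCT, or its 6-letter part AGAACA, the cyclic AMP response element TGACGTCA or its 5-letter part TGACG, and the E-box CACGTG of clock factors. Each short part also lies within its full element. The Sgk1 window is shown for its full glucocorticoid element, those of Tsc22d3 and Sult1a1 for the 6-letter part, and those of Errfi1, Per1 and Fkbp5 for the other marked motifs.
Sgk1 (chr10:21993640-21993939, plus strand): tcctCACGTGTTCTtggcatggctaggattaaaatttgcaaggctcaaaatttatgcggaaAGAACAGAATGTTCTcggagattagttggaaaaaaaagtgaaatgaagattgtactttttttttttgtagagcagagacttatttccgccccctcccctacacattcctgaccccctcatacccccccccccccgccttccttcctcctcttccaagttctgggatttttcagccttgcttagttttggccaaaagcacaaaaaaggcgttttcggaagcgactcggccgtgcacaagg
Tsc22d3 (chrX:140600473-140600772, minus strand): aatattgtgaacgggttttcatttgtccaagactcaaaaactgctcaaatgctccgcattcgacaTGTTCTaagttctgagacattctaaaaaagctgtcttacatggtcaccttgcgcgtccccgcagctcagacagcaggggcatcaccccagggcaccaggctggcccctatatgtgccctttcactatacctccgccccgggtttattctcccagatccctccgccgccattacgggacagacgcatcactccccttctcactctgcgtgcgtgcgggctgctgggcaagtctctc
Sult1a1 (chr7:126676369-126676668, minus strand): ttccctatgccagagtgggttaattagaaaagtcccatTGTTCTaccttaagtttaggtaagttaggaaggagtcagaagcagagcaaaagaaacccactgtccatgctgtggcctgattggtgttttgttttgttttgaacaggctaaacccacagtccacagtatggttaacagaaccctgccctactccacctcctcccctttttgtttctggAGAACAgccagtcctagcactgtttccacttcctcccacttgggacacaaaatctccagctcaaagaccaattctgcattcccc
Errfi1 (chr4:150854820-150855119, plus strand): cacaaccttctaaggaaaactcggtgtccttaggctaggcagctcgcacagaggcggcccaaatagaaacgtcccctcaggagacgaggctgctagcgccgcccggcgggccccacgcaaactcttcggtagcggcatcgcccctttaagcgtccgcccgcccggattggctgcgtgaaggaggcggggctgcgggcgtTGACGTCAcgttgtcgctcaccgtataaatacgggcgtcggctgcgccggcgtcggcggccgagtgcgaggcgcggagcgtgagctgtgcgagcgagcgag
Per1 (chr11:69098699-69098998, plus strand): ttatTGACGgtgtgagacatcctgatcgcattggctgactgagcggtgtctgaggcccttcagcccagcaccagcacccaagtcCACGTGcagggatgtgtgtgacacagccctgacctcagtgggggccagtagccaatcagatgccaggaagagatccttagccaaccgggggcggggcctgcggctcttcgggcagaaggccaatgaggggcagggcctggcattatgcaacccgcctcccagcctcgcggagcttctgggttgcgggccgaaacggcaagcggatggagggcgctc
Fkbp5 (chr17:28486100-28486399, minus strand): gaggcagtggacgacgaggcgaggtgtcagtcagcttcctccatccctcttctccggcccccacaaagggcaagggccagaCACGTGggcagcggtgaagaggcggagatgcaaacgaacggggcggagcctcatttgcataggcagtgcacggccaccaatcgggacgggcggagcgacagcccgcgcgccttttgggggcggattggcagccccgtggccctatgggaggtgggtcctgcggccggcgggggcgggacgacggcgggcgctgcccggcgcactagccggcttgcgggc
The full glucocorticoid element was in the Sgk1 window at position -189 from the start site, and in 3 of 32851 promoters of the genome (0.00913%). This window also held an E-box at position -246 that overlaps a further 6-letter part at position -242. That part by itself was in 18.97% of all promoters, and 5 of the 16 windows held it, of Sgk1, Tsc22d3 and Sult1a1. The cyclic AMP element in Errfi1, at position -51, was in 1.79% of all promoters, its 5-letter part in 20.8%, and the E-box of Fkbp5, Per1 and Sgk1 in 7.15%. The TATA box TATAAA, left unmarked, was in Errfi1 and Sgk1 windows and in 13.6% of promoters. The AP-1 site TGACTCA, found in 5.20% of promoters, was in 0 of the 16 windows, and Ddit4 held none of these motifs. A match of letters is not a binding site, and a lack of one in 300 bases says nothing of elements elsewhere.

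Of the 96 pairs of gene and class, those with at least 20 UMIs in the 2 libraries compared were measured, and a pair was called higher or lower at a 2-fold difference in CPM. In ULI, 31 of 82 pairs were higher than in control and 8 lower. Over all genes and classes, 8.84% of pairs were higher and 12.8% lower by the same rule. In ULC, 44 of 80 were higher and 1 lower, beside 14.1% and 12.7% of all pairs. On both sides at once, 25 of 78 were higher and 0 lower, beside 3.44% and 4.15%. The genes were picked for this contrast, and nothing is read from these shares. The 25 pairs were not spread evenly over genes: Fkbp5 was higher on both sides in 8 of the 9 classes where it was measured, Sgk1 in 5 of 12, Errfi1 in 4 of 12, Sult1a1 in 4 of 9, Tsc22d3 in 2 of 12, Zbtb16 in 2 of 4, and Ddit4 and Per1 in 0 of 10. Nor were they spread evenly over classes. Mature oligodendrocytes had 4 of 8 genes higher on both sides, beside 3.93% of all genes. Microglia and endothelial cells had 3 of 8, beside 2.26% and 2%, and astrocytes and vascular smooth muscle cells 3 of 7, beside 1.48% and 3.75%. Pericytes had 3 of 4, beside 2.62%, and ependymal cells 2 of 5, beside 2.35%. The counts of astrocytes and of pericytes each include Sgk1, which could not be told apart there from RNA carried over from other classes. Perivascular macrophages and oligodendrocyte precursors had 1 of 7, beside 2.62% and 1.72%, leptomeningeal fibroblasts 1 of 5, beside 5.24%, and choroid plexus epithelium 1 of 6, beside 10.1%. Newly formed oligodendrocytes, with 41 cells in control, had 0 of 6, beside 4.65%.

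**Figure D1:**
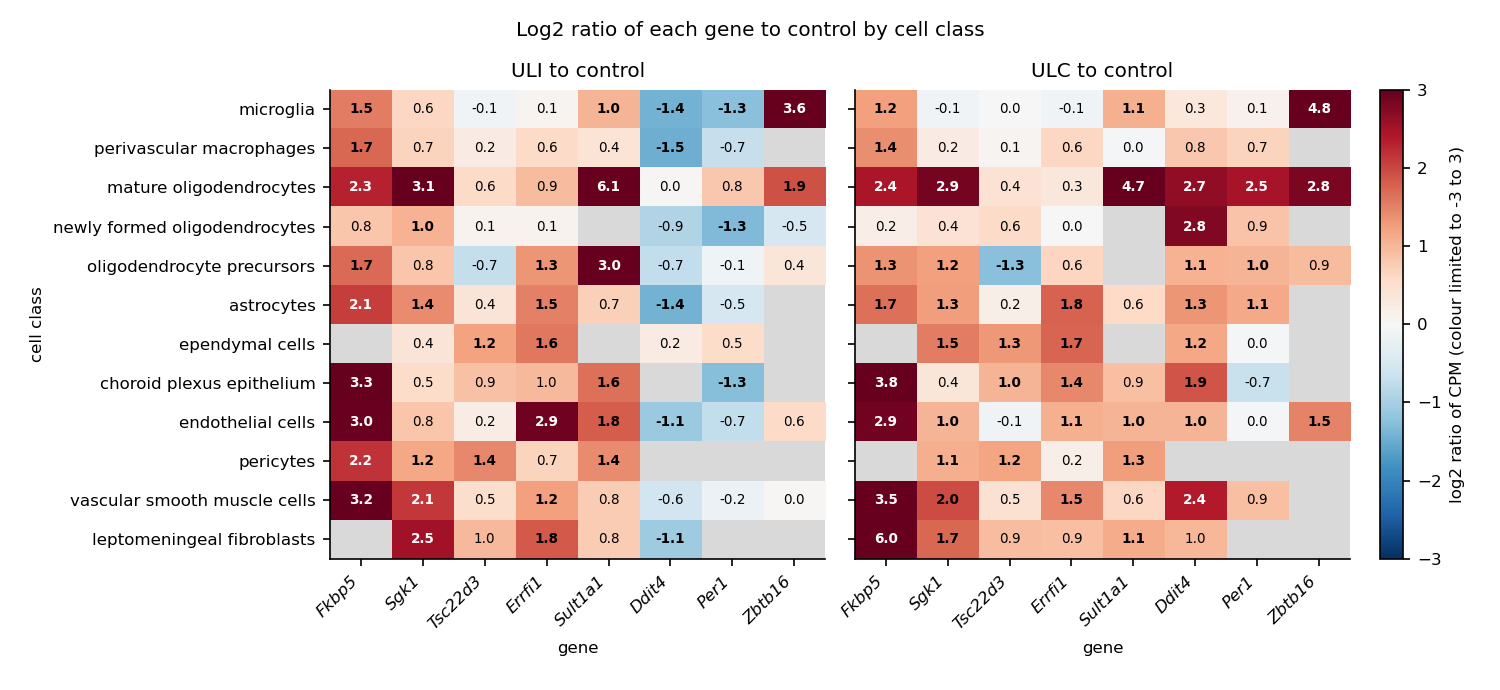
Log2 ratio of the CPM of each of the 8 genes (columns) to control in 12 cell classes (rows), ULI at left and ULC at right; red is higher and blue lower, bold marks a difference of at least 2-fold, and grey marks fewer than 20 UMIs. Fkbp5 is red in both panels in most classes, while Ddit4 and Per1 are blue or pale at left and mostly red at right.

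Fkbp5 encodes FKBP51, a cochaperone that lowers the affinity of the glucocorticoid receptor for its hormone and so closes a feedback loop. The gene lies on chromosome 17 at 28399094 to 28517527 of GRCm38, the build of all gene positions here. In perivascular macrophages, which held its highest level in each library, Fkbp5 stood at 243 (213 to 276), 808 (741 to 881) and 637 (562 to 719) CPM in control, ULI and ULC. Values in parentheses after a level are its exact Poisson 95% interval, which covers counting error only. Microglia, the resident macrophages of the brain, came next, at 183 (172 to 195), 529 (499 to 561) and 428 (391 to 468) CPM. The 3 intervals were apart in both classes, with control lowest and ULI highest. In ULC the microglial interval overlapped that of leptomeningeal fibroblasts. On a log2 scale, the ratio to control in microglia was 1.53 (1.41 to 1.65) in ULI and 1.22 (1.06 to 1.38) in ULC, where the parentheses hold an exact binomial interval of the same kind.

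Several classes with a low level in control had larger ratios of Fkbp5. In mature oligodendrocytes, the myelin-forming cells, it stood at 41.1 (38 to 44.5), 202 (186 to 219.9) and 224 (202 to 246) CPM, with both UL intervals above control and overlapping each other. In oligodendrocyte precursors it stood at 50.3, 164 and 128 CPM, and in astrocytes at 24.8, 104 and 77.9 CPM. Endothelial and smooth muscle cells of vessels had log2 ratios of about 3. Endothelial cells, which line the vessels, held 15.8 (8.42 to 27.1), 124 (85.9 to 173) and 118 (86.2 to 157) CPM, and vascular smooth muscle cells 12.2 (3.32 to 31.2), 114 (90.3 to 141) and 136 (100.2 to 180.1) CPM, both with control intervals below those of ULI and ULC. The smooth muscle value of control rests on 4 UMIs. In choroid plexus epithelium, which makes cerebrospinal fluid, control held 1 UMI, ULI 51 and ULC 174, or 3.77, 37.4 and 51.2 CPM, with ratios of 3.31 (0.77 to 8.64) and 3.76 (1.27 to 9.08).

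The other classes were measured less well or differed less. Leptomeningeal fibroblasts, of the membranes around brain and vessels, held 1, 8 and 24 UMIs of Fkbp5, or 6.55, 134 and 423 CPM. Pericytes, which wrap capillaries, held 27.9, 124 and 81.3 CPM, with a ratio of 2.16 (0.46 to 4.52) in ULI, and ULC was not measured there, with 7 UMIs. In newly formed oligodendrocytes the levels were 31.6 (16.8 to 54), 56 (49.3 to 63.4) and 36.4 (28.9 to 45.2) CPM, where the control interval overlapped those of both sides, while ULI was above ULC. Ependymal cells, the ciliated lining of the ventricles, held 13, 2 and 3 UMIs, too few to be measured. Fkbp5 was above control on both sides in 9 of the 9 classes measured on both sides, by 2-fold in 8 of them. Between the sides, its log2 ratio of ULI to ULC had a median of 0.31 over 11 classes, with 0 classes higher and 1 lower by 2-fold, beside 10% and 16% of all pairs.

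**Figure D2:**
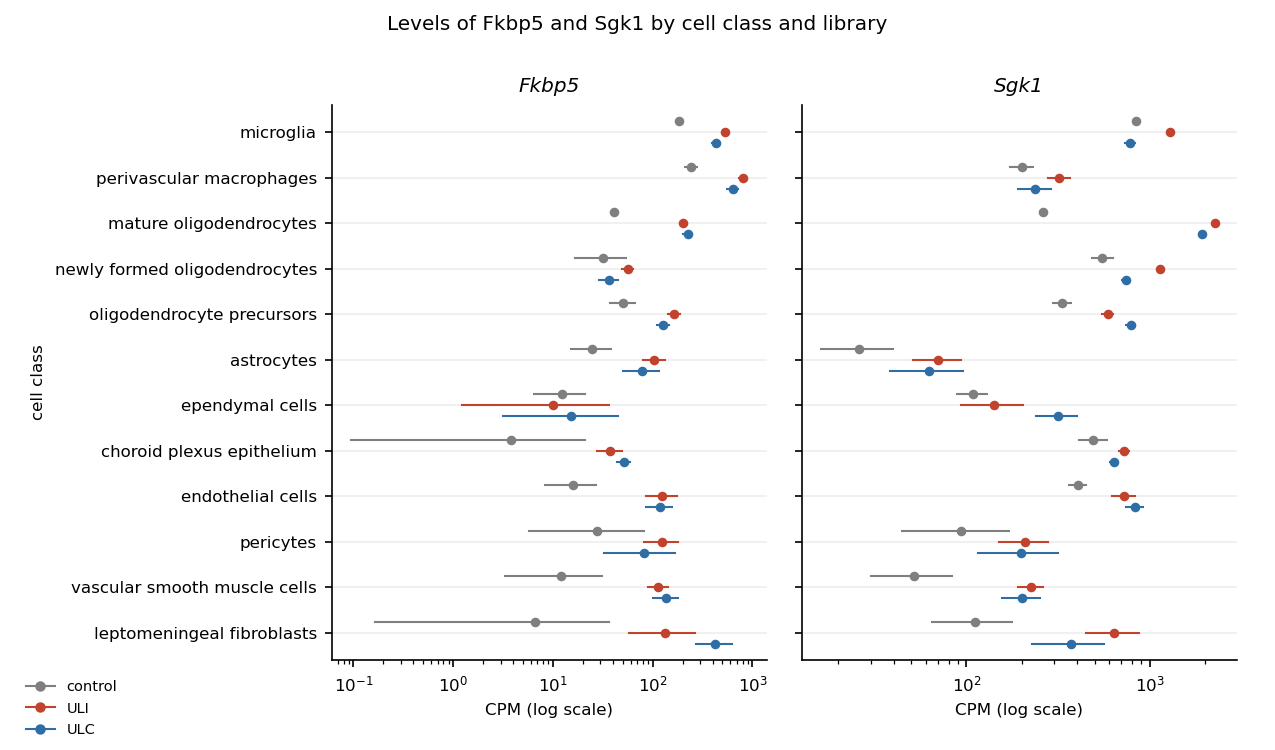
Levels of Fkbp5 (left) and Sgk1 (right) in CPM on a log axis in 12 cell classes; points are the control, ULI and ULC libraries and lines are exact Poisson 95% intervals. Fkbp5 of ULI and ULC lies to the right of control in nearly every class, and Sgk1 stands furthest from control in mature oligodendrocytes.

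The spread of Fkbp5 over classes was also set beside that of all genes, as a description. Of 5407 genes measured on both sides in at least 8 classes, 2 were higher on both sides in at least 8 classes (0.037%), Fkbp5 and Ttr. Ttr, the main transcript of the choroid plexus, was so in 10 of 12. Fos and Zfp36, which encode an early transcription factor and an RNA-binding protein that ends inflammatory messages, followed with 6 of 12. Sgk1 stood among 11 genes with at least 5 (0.203%). These other genes were named after their values were seen.

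Sgk1 encodes a kinase of the AKT family that acts on ion channels and transporters, and it lies on chromosome 10 at 21882184 to 21999903. Its order of classes differed between control and UL. In control it was highest in microglia, at 841 (817 to 866) CPM, and stood at 263 (255 to 271) in mature oligodendrocytes. In ULI and ULC mature oligodendrocytes held the most, at 2273 (2217 to 2330.0) and 1936 (1872 to 2001) CPM. These are ratios of 3.11 (3.05 to 3.17) and 2.88 (2.81 to 2.95) on the log2 scale, over 3950, 6279 and 3507 UMIs. The lead over the next class was larger than counting error, microglia at 1284 in ULI and endothelial cells at 827 in ULC.

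Thinned to 500 UMIs per cell, so that depth is equal, 9.5%, 46.8% and 40.6% of mature oligodendrocytes held an Sgk1 UMI in control, ULI and ULC. Unthinned shares were 46.9%, 63.8% and 52.6%, at median depths of 4136, 903 and 755 UMIs, and thinning left out 0, 16 and 7 cells. Astrocytes, where Sgk1 was lowest in every library, held an Sgk1 UMI in 0.99%, 1.82% and 3.52% of thinned cells and 3.29%, 6.87% and 8.57% of all cells, at median depths of 2171, 1475 and 1238. Astrocytes were picked for the lowest level, so their smaller shares were fixed in advance and carry no weight.

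In other classes the sides of Sgk1 differed less from control. Vascular smooth muscle cells held 51.8 (30.2 to 83), 225 (191 to 262) and 201 (157 to 253) CPM, leptomeningeal fibroblasts 111, 638 and 369.9 CPM, pericytes 93, 207 and 198 CPM and astrocytes 26.1, 70.0 and 62.3 CPM, each higher on both sides. The carry-over of RNA from other classes, estimated at the end, came to between 57.9% and 190.0% of the Sgk1 levels of pericytes and astrocytes. Newly formed oligodendrocytes, at 551, 1138 and 739 CPM, passed 2-fold in ULI, and oligodendrocyte precursors, at 333, 590.0 and 788, and ependymal cells, at 108, 141 and 314, in ULC. Endothelial cells held 405 (363 to 451), 723 (625 to 831) and 827 (739 to 922) CPM, past 2-fold in ULC and short of it in ULI. Choroid plexus epithelium held 493, 722 and 636 CPM and perivascular macrophages 201, 319.7 and 237 CPM, within 2-fold of control on both sides. In microglia the sides parted, with 841 (817 to 866), 1284 (1236 to 1332) and 782 (731 to 835) CPM, ULI above control and ULC just below it. In microglial cluster 10, the one with at least 20 cells of each library, Sgk1 stood at 654, 980.5 and 914 CPM, and both ratios were above 0, at 0.58 (0.37 to 0.79) and 0.48 (-0.09 to 1.01), the latter on 31 UMIs with an interval that includes 0.

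**Figure D3:**
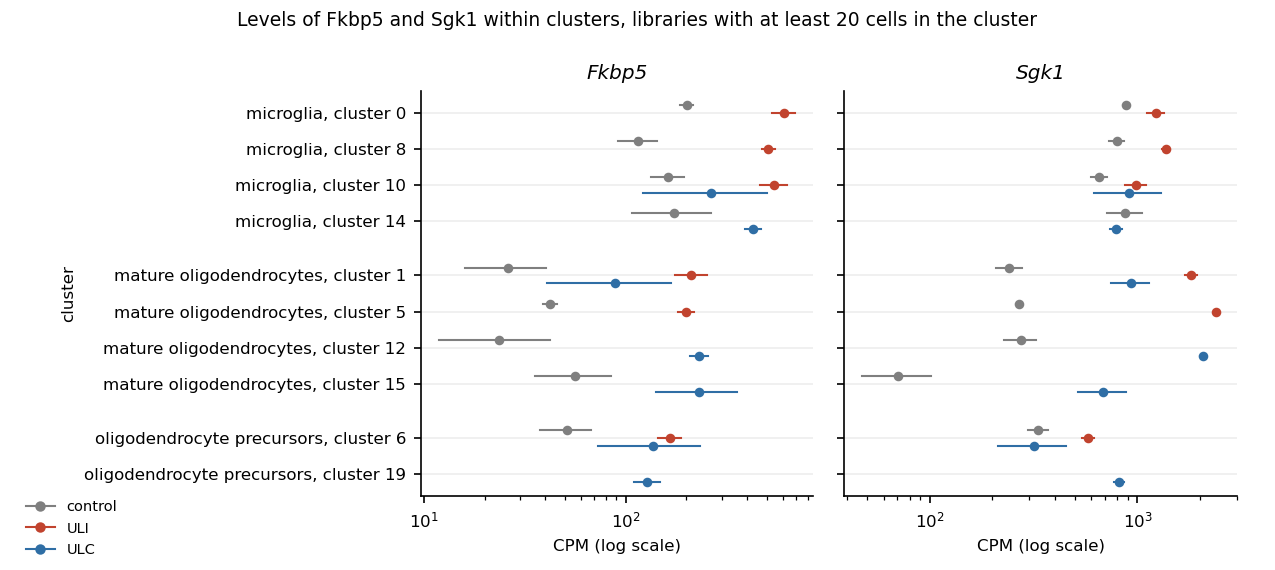
Levels of Fkbp5 (left) and Sgk1 (right) in CPM on a log axis in single clusters of microglia, mature oligodendrocytes and oligodendrocyte precursors; points are libraries with at least 20 cells in the cluster and lines are exact Poisson 95% intervals. In each mature oligodendrocyte cluster the UL points lie to the right of control for both genes.

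Since libraries filled different clusters, levels were also read within single clusters. Cluster 1 was the one oligodendrocyte cluster with at least 20 cells of each library, 410, 470 and 111. It was named on 3 of 10 markers over 2-fold, the fewest allowed, with 0 of them among its 10 leading genes. Its cells were shallow, with a median of 894 UMIs, so its identity is less firm. There Fkbp5 stood at 26.2, 212 and 88.8 CPM, with ratios of 3.02 (2.32 to 3.78) and 1.76 (0.44 to 2.96), and Sgk1 at 241, 1810.1 and 928 CPM, with ratios of 2.91 (2.68 to 3.14) and 1.94 (1.57 to 2.31). Both ULC ratios were smaller than over the whole class, 2.44 and 2.88. In the deep oligodendrocyte cluster 5, Fkbp5 stood at 42.1 CPM in control and 199 in ULI, and Sgk1 at 269.8 and 2401. In cluster 12, mostly ULC cells, Fkbp5 stood at 23.7 CPM in control and 231 in ULC, and Sgk1 at 274 and 2065. In cluster 15, led by Klk6, Fkbp5 stood at 56.1 and 230.5 CPM, and Sgk1 at 70.7 and 679.9. Within each of these clusters the UL interval lay above that of control for both genes. The Fkbp5 value of control in cluster 12 rests on 11 UMIs. In cluster 1 the Fkbp5 value of ULC rests on 9 UMIs. Its interval, 40.6 to 168.6 CPM, starts just above the control limit of 40.46. Among microglia, Fkbp5 stood at 200.2 CPM in control and 607 in ULI in cluster 0, and at 115 and 509.7 in cluster 8. In cluster 14, with most ULC microglia, it stood at 174 CPM in control and 428 in ULC. Over clusters shared by all 3 libraries, an alternative chosen after seeing the data, the ratio of Fkbp5 in microglia was 1.74 (1.39 to 2.09) in ULI and 0.71 (-0.45 to 1.68) in ULC, the latter on 9 UMIs. Oligodendrocyte precursors were an exception for Sgk1. In cluster 6 it stood at 332, 578 and 317 CPM, so ULC was at the level of control there, and the higher ULC value of the class, 788 CPM, came from cluster 19.

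Tsc22d3 encodes GILZ, a leucine zipper protein that restrains inflammatory transcription, and it lies on chromosome X at 140539528 to 140600659. It was highest in leptomeningeal fibroblasts, at 943 (795 to 1109.8), 1862 (1532 to 2243) and 1797 (1465 to 2181) CPM, with ratios just under 2-fold on both sides. Ependymal cells held 205 (178 to 234), 472 (381 to 577) and 507 (412 to 616) CPM and pericytes 149 (85.1 to 242), 401 (321 to 495) and 337 (226 to 484) CPM, and these were the classes higher on both sides. In microglia, where Fkbp5 differed by more than 2-fold, Tsc22d3 stood at 377 (361 to 394), 350.3 (326 to 376) and 376 (341 to 413) CPM with overlapping intervals. Perivascular macrophages at 589.8, 698 and 622 CPM, astrocytes at 569.7, 744 and 645 and endothelial cells at 509, 595 and 476 were within 2-fold. Oligodendrocyte precursors held less in UL, at 55.5 (41.6 to 72.6), 34.1 (25.2 to 45.1) and 23.3 (16.3 to 32.2) CPM, and ULC was the 1 pair of gene and class called lower on that side. Fkbp5 was not measured on both sides in either of the classes where Tsc22d3 was higher on both.

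Errfi1 encodes MIG6, an inhibitor of the epidermal growth factor receptor, and it lies on chromosome 4 at 150853919 to 150868892. Its level was highest in vascular smooth muscle cells, at 543 (466 to 629), 1263 (1182 to 1349) and 1486 (1362 to 1619) CPM, and both UL intervals were above control. Astrocytes held 48.4 (34.4 to 66.2), 138 (111 to 170.4) and 165 (124 to 216) CPM and ependymal cells 31.9 (22.1 to 44.6), 95.3 (57.4 to 149) and 106 (65.9 to 163) CPM, with ULI and ULC overlapping above control. Endothelial cells held 24.3 (14.9 to 37.6), 182 (135 to 241) and 51.2 (31.3 to 79) CPM, where ULI was far above ULC with a log2 ratio of 1.83 (1.06 to 2.66). Fibroblasts at 281, 1007 and 528 CPM and oligodendrocyte precursors at 89.1, 223 and 139 CPM passed 2-fold in ULI and not in ULC. Microglia at 171, 181 and 159 CPM and newly formed oligodendrocytes at 55.9, 59.8 and 55.2 CPM stayed near control. In choroid plexus epithelium control held 0 UMIs, with an exact Poisson upper limit of 13.9 CPM, while ULI held 22 and ULC 30.9 CPM. With control set at 11.3 CPM, as 3 counts would give there, ULC was higher by 1.45 on the log2 scale. An RNA gene on the opposite strand, 1700045H11Rik, overlaps Errfi1, and whether reads were counted by strand is not given in the sources used here.

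Sult1a1 encodes a sulfotransferase that conjugates phenols, catecholamines and drugs, and it lies on chromosome 7 at 126672865 to 126676432. Endothelial cells held 139 (114 to 167), 485 (406 to 575) and 279 (229 to 336) CPM, both sides above control and ULI above ULC. Microglia held 61.9 (55.5 to 68.9), 126 (112 to 142) and 129.7 (109.5 to 153) CPM, with the sides level, and pericytes 102, 272 and 244 CPM. In mature oligodendrocytes it was close to absent in control, with 6 UMIs or 0.399 (0.147 to 0.869) CPM. It stood at 28.2 (22.3 to 35.2) CPM in ULI and 10.5 (6.31 to 16.4) in ULC, ratios of 6.14 (4.96 to 7.63) and 4.71 (3.33 to 6.33). These are the largest log2 ratios of the gene and rest on 78 and 19 UMIs. Most of these lay in cluster 5, with 5 UMIs in control and 72 in ULI, and in cluster 12, with 0 in control and 18 in ULC. In cluster 1, shared by all libraries, Sult1a1 had 1, 6 and 0 UMIs, and the ULI ratio was 3.03 (-0.02 to 8.55). Scaled by the markers of other classes, their RNA would give 134%, 6.91% and 15.8% of the oligodendrocyte level in control, ULI and ULC. Perivascular macrophages, with the most in control, held 229.7, 303 and 222 CPM and were within 2-fold. Sgf29, a protein-coding gene on the opposite strand, overlaps Sult1a1.

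Zbtb16 encodes PLZF, a zinc finger transcription factor, and it lies on chromosome 9 at 48654297 to 48836222. It was the sparsest of the 8 genes and was measured on both sides in 4 classes. Microglia held 1.66 (0.759 to 3.15), 20.6 (15 to 27.5) and 46.2 (34.5 to 60.6) CPM, from 9, 45 and 52 UMIs, with the 3 intervals apart. Mature oligodendrocytes held 7.86 (6.5 to 9.41), 29.3 (23.3 to 36.4) and 55.7 (45.4 to 67.7) CPM, with the same order. The log2 ratio of microglia reached 3.63 (2.58 to 4.85) in ULI and 4.80 (3.77 to 6.01) in ULC. In microglial cluster 10, shared by all libraries, Zbtb16 had 2, 10 and 1 UMIs. The ratios there were 3.46 (1.23 to 6.69) in ULI and 3.41 (-2.47 to 7.67) in ULC. In oligodendrocyte cluster 1, also shared by all, it had 8, 13 and 0 UMIs, and the ULI ratio was 1.14 (-0.24 to 2.62). Endothelial cells held 29.2, 43.8 and 81.9 CPM and passed 2-fold in ULC, and oligodendrocyte precursors held 29.3, 37.6 and 56.3 CPM and did not pass on either side.

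**Figure D4:**
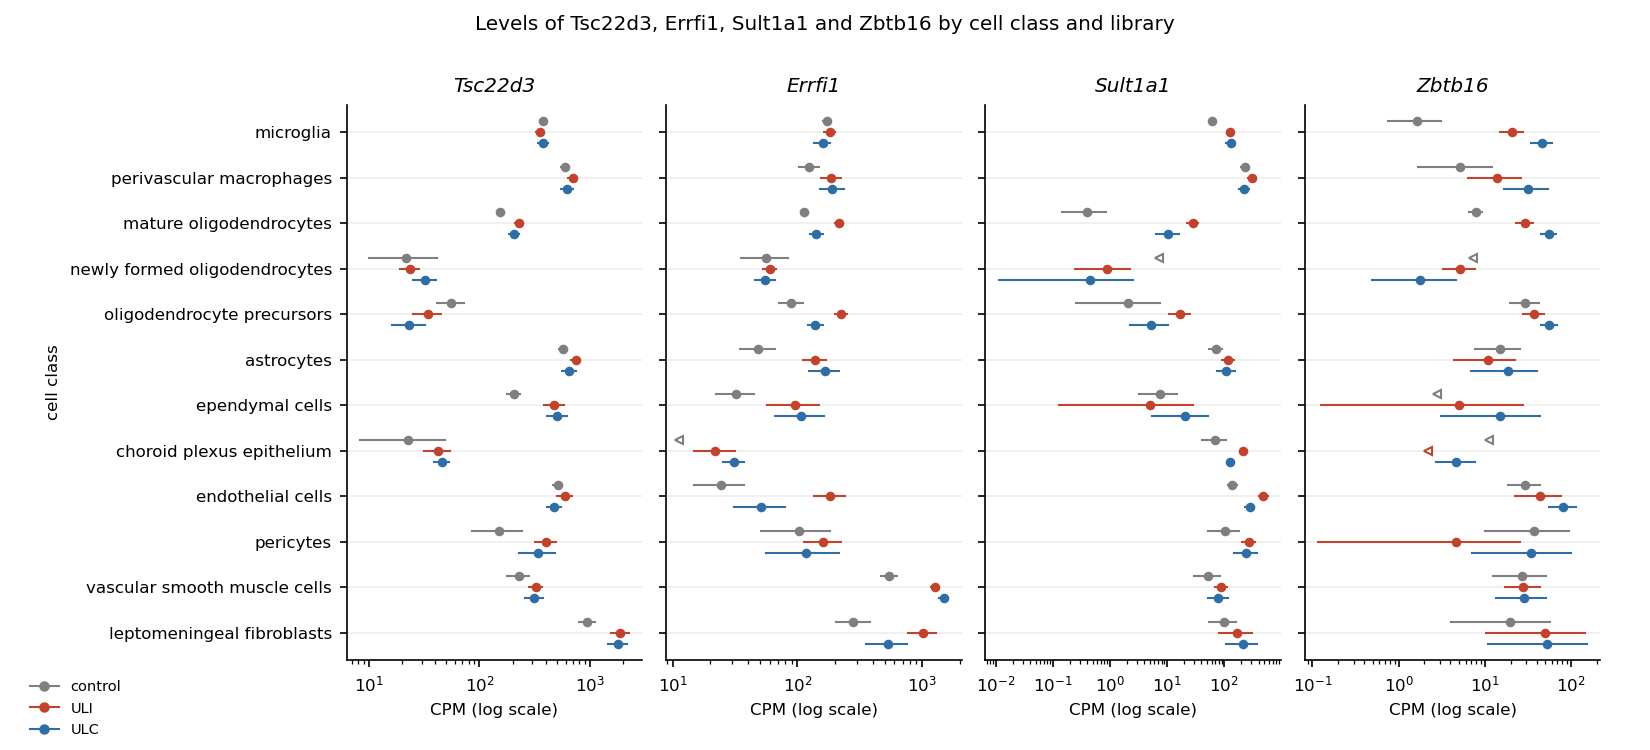
Levels of Tsc22d3, Errfi1, Sult1a1 and Zbtb16 in CPM on log axes in 12 cell classes; points are the control, ULI and ULC libraries, lines are exact Poisson 95% intervals, and an open triangle marks the level of 3 counts where no UMI was seen. Errfi1 is highest in vascular smooth muscle cells in each library, and Sult1a1 of mature oligodendrocytes lies far to the left in control, below ULI and ULC.

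Ddit4 and Per1 departed from this pattern. Ddit4 encodes REDD1, an inhibitor of the growth kinase complex mTORC1 that also answers hypoxia and cell stress, and it lies on chromosome 10 at 59949669 to 59951834. It was lower in ULI than in control in 5 of 10 classes and higher in 0, beside 12.8% and 8.84% of all pairs. In ULC it was higher in 8 of 11 and lower in 0, beside 14.1% and 12.7%. Astrocytes held 150.2 (125 to 179), 56 (39.2 to 77.5) and 374 (310.1 to 447) CPM, endothelial cells 165 (139 to 196), 76.6 (47.4 to 117) and 335 (280.3 to 398) CPM and perivascular macrophages 97.3 (78.6 to 119), 35.4 (22.4 to 53) and 171 (133 to 216) CPM. In each of these the 3 intervals were apart, with ULI lowest and ULC highest. Microglia held 68.2, 25.6 and 84.4 CPM, where ULI was lower and ULC within 2-fold. Mature oligodendrocytes held 81.8 (77.3 to 86.5), 84.3 (73.9 to 95.9) and 517 (485 to 551) CPM and newly formed oligodendrocytes 36.4 (20.4 to 60.1), 19.6 (15.7 to 24.2) and 248 (228 to 269.8) CPM, where ULC stood above both other libraries. In oligodendrocyte cluster 1 the ULC ratio of Ddit4 was 1.99 (1.29 to 2.66), beside 2.66 over the class. Set directly against each other, Ddit4 was lower in ULI than ULC in 10 of 11 classes, beside 16% of all pairs. Its median log2 ratio was -2.13. The largest gap was in newly formed oligodendrocytes, at -3.66 (-4.00 to -3.33). The sides filled different clusters of that class in part. Cluster 13 held 470 ULI and 6 ULC cells, and cluster 22, at a median of 15868 UMIs, 3 and 124. Cluster 4 held 293 and 551. Whether this bears on the gap was not tested.

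Per1 encodes a repressor of the circadian clock whose level swings over the day, and it lies on chromosome 11 at 69095217 to 69109960. It was highest in microglia, at 131 (121 to 141), 54.4 (45 to 65) and 144 (123 to 168) CPM, with ULI below both others and ULC overlapping control. Perivascular macrophages held 79.7 (62.9 to 99.6), 49.2 (33.6 to 69.4) and 127 (94.8 to 166) CPM, in the same order, with the control interval overlapping both others. In mature oligodendrocytes it stood at 10.3 (8.7 to 12), 18.1 (13.4 to 23.9) and 56.8 (46.4 to 68.9) CPM, with the 3 intervals apart and ULC highest. Astrocytes at 39.7, 28 and 87.3 CPM and oligodendrocyte precursors at 32.5, 29.9 and 65.9 CPM were higher in ULC alone. Per1 was lower in ULI than ULC in 7 of 9 classes, beside 16% of all pairs, with a median log2 ratio of -1.37. The hour at which each pool was taken is not given in the sources used here.

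**Figure D5:**
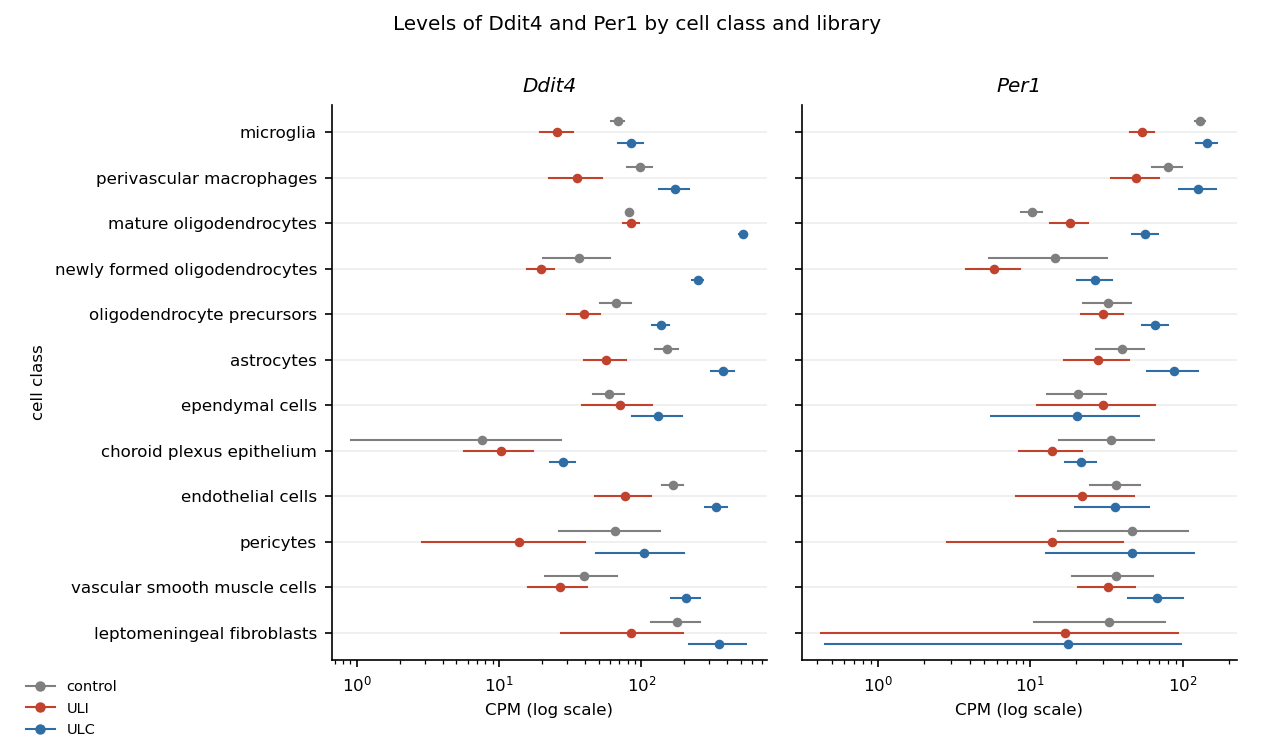
Levels of Ddit4 (left) and Per1 (right) in CPM on a log axis in 12 cell classes; points are the control, ULI and ULC libraries and lines are exact Poisson 95% intervals. ULI lies to the left of ULC for Ddit4 in all 12 classes, and for Per1 in most.

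The genes were also compared over the 36 sums of class and library, on log2(CPM + 10) after the mean of each class was taken off. These sums share a library, its depth and its free RNA, so the correlations are a description. Fkbp5 went with Sgk1 (Pearson r = 0.79), Sult1a1 (0.78) and Errfi1 (0.71), and less with Tsc22d3 (0.53) and Zbtb16 (0.45). Ddit4 went with Per1 (0.82) and hardly with Fkbp5 (0.09), Sgk1 (0.08) or Errfi1 (-0.06). Among 12303 genes with at least 200 UMIs, those most like Fkbp5 were Zfp36 (0.88), Becn1 (0.84) and Nfkbiz (0.83), and those most like Ddit4 were Map1lc3a (0.93), Actr1a (0.93) and Ankrd13a (0.91). Sgk1 was most like Clk1 (0.85), then Fkbp5, and Slc38a2 (0.78). Per1 was most like Tsc22d4 (0.82), then Ddit4, and Rhog (0.81). For Sult1a1 the nearest was Eif2s3y (0.81), on the Y chromosome, at 47.0, 121 and 85.5 CPM over all cells of control, ULI and ULC, followed by Gm7832 (0.80) and Clk1 (0.80). Tsc22d3 was most like Fam58b (0.78), Zfp950 (0.76) and Tifa (0.74), Errfi1 like Ssfa2 (0.78), Sash1 (0.75) and Zfp638 (0.74), and Zbtb16 like Gm8995 (0.75), Ets2 (0.75) and Lmna (0.74).

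Without the class means taken off, the likeness follows where a gene is expressed. By that measure Fkbp5 was most like Ncoa3 (0.76), Ints6l and Itsn2 (both 0.74), and Sgk1 like Alg5 (0.68), Polr2g and Tgfa (both 0.62). Tsc22d3 was most like Hsd17b11 (0.81), Bag3 and Arl4d (both 0.80), Errfi1 like Crispld2 (0.74), Bmp2 (0.73) and Lox (0.72), and Sult1a1 like Anxa7, Ifih1 (both 0.82) and Nrp1 (0.81). Ddit4 was most like Rnf220 (0.73), Rbm22 and Nfic (both 0.72), Per1 like Arhgef1 (0.82), Wdr81 and Plekho1 (both 0.78), and Zbtb16 like Rhoc (0.72), Abcg2 (0.63) and Stat3 (0.62).

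The receptors themselves were not called higher in any class measured. Nr3c1 was measured in all 12 classes, with 0 higher and 1 lower on each side, and a median log2 ratio of -0.14 in ULI and -0.40 in ULC. It stood at 239, 213 and 197 CPM in microglia, 108, 107 and 99.9 in mature oligodendrocytes, 202, 185 and 131 in astrocytes and 192, 153 and 84.5 in endothelial cells. It was highest in pericytes in control, at 353 CPM, and in oligodendrocyte precursors in ULI and ULC, at 388 and 247. Nr3c2 was sparse, with its most in astrocytes, at 36, 18.7 and 31.2 CPM, and was measured in 4 classes of ULI, 1 lower, and 5 of ULC, 0 higher or lower. The lower value was in microglia, at 4.79, 0.457 and 2.66 CPM from 26, 1 and 3 UMIs. Hsd11b1, which regenerates active hormone inside cells, was measured in 2 classes on each side, and was higher in 1 of ULI. Abcb1b, a steroid-exporting pump, was measured in 2 on each side and called in 0. Of the chaperones and cofactors of the receptor, 4 pairs were higher and 15 lower of 118 in ULI, and 18 higher and 3 lower of 119 in ULC. Over all genes and classes 8.84% of pairs were higher and 12.8% lower in ULI, and 14.1% and 12.7% in ULC, and counts of this and the next lists stand beside these shares. Hspa8, the constitutive heat shock chaperone, was lower in ULI in 6 of 12 classes, with medians of -1.12 in ULI and -0.09 in ULC. Stip1, Hsp90ab1 and Ncor1 had medians of -0.81, -0.38 and 0.19 in ULI, and -0.10, 0.31 and 0.17 in ULC.

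A further 22 genes known to respond to glucocorticoids were listed. In ULI, 51 of 162 pairs were higher and 13 lower, with a median log2 ratio of 0.37, and in ULC 60 of 164 were higher and 13 lower, with a median of 0.59. The medians of all genes lay between -0.17 and 0.12 in the 12 classes. Mature oligodendrocytes held the most calls, with 14 of 18 genes higher in ULI and 11 of 17 in ULC, beside 8.77% and 17.6% of all genes there, and medians of 1.63 and 2.22. By share, leptomeningeal fibroblasts had more in ULC, 7 of 10, and 6 of 9 in ULI, beside 17% and 15.1% of all genes there. Mature oligodendrocytes also had 7 of 10 immediate early genes higher in ULI and 9 of 11 in ULC, and 3 and 4 of 5 heat shock genes. In microglia, which had 3 of the 8 genes higher on both sides, the medians of the list were -0.27 and -0.06. Cebpd, a transcription factor of acute responses, was higher in 5 of 11 classes of ULI and 5 of 10 of ULC, as in endothelial cells at 165, 456 and 338 CPM. Bcl6, a repressor, was higher in 5 of 11 and 3 of 10, and in perivascular macrophages stood at 45.5, 121 and 144 CPM. Klf9, a zinc finger factor that responds to the hormone in neurons and glia, was higher in 1 and 4 of 12, and Rhob, a small GTPase, in 0 of 12 on either side. Cdkn1a, a cell cycle inhibitor named here after its values were seen, was higher in 5 and 6 of 10, and in mature oligodendrocytes stood at 51.1, 285 and 418 CPM.

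Some of the 8 genes also answer signals other than glucocorticoids, and gene lists for such signals are given beside them. Of immediate early genes, which dissociation of tissue can also switch on, 22 of 115 pairs were higher and 19 lower in ULI, and 55 of 119 higher and 9 lower in ULC, with medians of 0.17 and 0.88, beside 8.84% and 12.8% of all pairs in ULI and 14.1% and 12.7% in ULC. Fos was higher in 6 and 7 of 12 classes, Fosb in 2 and 10 of 11 with 4 and 1 lower, Egr1 in 4 and 4 of 12, and Btg2 in 3 and 6 of 12. Their part in the result was not tested. Of genes of the integrated stress response, 6 of 36 pairs were higher and 2 lower in ULI, and 14 of 42 higher and 6 lower in ULC, with medians of 0.09 and 0.24. Among them Ddit3 was higher in ULC in 7 of 7 classes, with a median of 2.67, and was measured in 2 classes of ULI, with a median of 0.57. Sesn2 was higher in 3 of 4 classes of ULC and 0 of 2 of ULI, Atf4 in 3 and 0 of 12, and Slc7a11 in 1 and 2 of 4. Like Ddit4, Ddit3, Sesn2 and Atf4 were called higher in ULC and in 0 classes of ULI, and this was not tested.

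Lists for hypoxia, which is known to induce Ddit4, and for the clock, of which Per1 is a part, stand beside those genes and the same shares of all pairs, 8.84% and 12.8% in ULI and 14.1% and 12.7% in ULC. Hypoxia genes had 13 of 88 pairs higher and 11 lower in ULI and 14 of 86 and 11 in ULC, with medians of 0.03 and 0.02. Vegfa, a vessel growth factor, was higher in 1 and 4 of 9 classes, Pgk1 in 4 of 10 and 0 of 9, and the glycolytic Ldha was lower in 3 and 1 of 12 and Pdk1 in 2 of 9 and 3 of 10. Clock genes had 8 of 96 pairs higher and 15 lower in ULI and 15 of 99 and 9 in ULC, with medians of 0.15 and 0.29. Per2, the nearest relative of Per1, was higher in 2 of 10 classes and lower in 1 in ULI, and higher in 1 of 9 in ULC. Clock had medians of 0.64 and 0.38, Nr1d2 of 0.55 and 0.28, and Arntl of 0.29 and 0.22. Heat shock genes had 12 of 65 pairs higher and 4 lower in ULI and 8 of 61 and 8 in ULC, with medians of 0.00 and -0.13. Hspa1a was higher in 1 of 12 on each side, Hsph1 in 4 of 12 and 2 of 10, and Hspb1 and Hspe1 had medians of -1.07 and -0.09 in ULI and -0.39 and -0.61 in ULC.

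RNA freed from broken cells can enter droplets or wells of other classes. In a class, the level of each marker of another class was divided by its level in that other class. The median ratio, capped at equality, was multiplied by the level of the gene in that other class. These products, added over the other classes, gave the level that such carry-over would reach. For Fkbp5 this was 0.457%, 0.858% and 0.717% of the microglial level in control, ULI and ULC, 2.76%, 3.04% and 1.72% of that in mature oligodendrocytes, and 24.1%, 5.67% and 6.01% of that in endothelial cells. For Sgk1 in mature oligodendrocytes it was 2.62%, 1.21% and 1.27%. In astrocytes the same estimate was as large as the Sgk1 level itself, at 100.1%, 115% and 190.0%, and in pericytes 57.9%, 98.1% and 91%, so Sgk1 in these classes could not be told apart from carry-over. In perivascular macrophages it was 80.0%, 70.9% and 69.3% for Sgk1 and 14.1%, 11.1% and 12.3% for Fkbp5. In the oligodendrocyte precursors of ULC it reached 96% for Sgk1 and 185% for Ddit4, mostly from newly formed oligodendrocytes. The estimate also counts as carry-over any marker that both classes express. Markers of newly formed oligodendrocytes summed to 2258, 1818 and 4232 CPM in precursors, and to 5640 CPM in their own class in ULC. Whether the precursors express these markers themselves was not tested.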

How the data were processed

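The deposited table holds raw UMI counts per gene and cell, made by the authors. The submitters' processing notes name CASAVA 1.8, UMI-tools, Seurat and mm10. Which aligner and annotation were used is not stated in the sources at hand, and those sources disagree on the cell capture platform. A cell needed 200 genes to be kept and a gene 3 cells, and counts were scaled to 10000 per cell. Then 2000 variable genes (the 8 genes left out), 30 components, 20 neighbours and Leiden clustering at resolution 1 gave 28 clusters, of which 26 were named from markers and 2, with 824 cells, were not. Counts were summed by class and library. Neurons and neutrophils, with fewer than 20 control cells, were left out. Doublets were kept. Scrublet marked 44 control cells by its automatic threshold, and 259 ULI and 239 ULC cells as the top 5 percent, since the automatic shares there were 0.0831% and 0.0220%. Levels have exact Poisson and ratios exact binomial 95% intervals. Of 1413 list ratios, 9 had 0 UMIs in a library and entered medians at the level of 3 counts. The code was tested on simulated data.

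The 8 genes and all lists were chosen with earlier results of these data known. Named are the 8 genes, Nr3c1, Nr3c2, up to 4 genes of each list, of the largest absolute median among the 8 measured in the most classes, and the 3 genes most like each of the 8 by each correlation. Alternatives changed the cell filter, clustering, scaling, thresholds, doublets, mitochondrial share, carry-over and clusters used. Tools were Python 3.11.15, numpy 2.4.6, scanpy 1.11.5, leidenalg 0.10.2, anndata 0.12.19, igraph 0.11.9, scikit-learn 1.9.0, scipy 1.17.1, pandas 2.3.3, matplotlib 3.10.9 and, for scaling factors only, DESeq2 1.42.0 and edgeR 4.0.16 in R 4.3.3.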

Additional observations from a re-analysis of the deposited data

Results flagged for a closer look

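In some pairs of gene and class, the ULI and ULC libraries lay on opposite sides of control, each with an interval that left out 0. In each case the difference was not tested, since there was 1 library per group. Sgk1 in microglia had log2 ratios of 0.61 in ULI and -0.11 in ULC. Over cluster 10, the microglial cluster filled by all libraries, both were above 0, at 0.58 (0.37 to 0.79) and 0.48 (-0.09 to 1.01), so the opposite signs were not seen there. Most ULC microglia (84.1%) lay in another cluster, and the cause was not tested. Ddit4 had ratios of -1.46 and 0.81 in perivascular macrophages, -1.42 and 1.32 in astrocytes, -0.74 and 1.05 in oligodendrocyte precursors, and -1.11 and 1.02 in endothelial cells. In the precursor cluster filled by all libraries its ratios were -0.91 (-1.49 to -0.34) and 0.87 (-0.21 to 1.81). Per1 in perivascular macrophages had ratios of -0.70 and 0.67.

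The barcodes left out for having fewer than 200 genes, 209 in control, 249 in ULI and 454 in ULC, also held UMIs of these genes. There Sgk1 stood at 400 CPM in ULI and 175 in ULC, Tsc22d3 at 189 CPM in ULI, and Ddit4 at 64.5 CPM in ULC, each above control. In the control barcodes Sgk1 stood at 22.3 CPM, Tsc22d3 at 16.7 and Ddit4 at 0.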

How the results depend on the processing

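No paired analysis was possible because each group was 1 pooled library. Of 2189 ratios of the 8 genes under the alternatives, 2018 stayed within the counting interval of the reported value, 164 lay outside it and 7 changed sign after a call. With at least 50 UMIs, 16 of 57 pairs were higher on both sides, and fewer pairs could be measured. Pairs lower in ULI were 5 with at least 50 UMIs, 5 in classes with at least 50 cells and 5 over clusters with at least 20 cells in every library, an alternative chosen after seeing the data. Pairs lower in ULC were 0 with at least 500 genes per cell, without doublets, at Leiden resolutions 0.5 and 2, with the 8 genes allowed among the variable genes and with the mean over cells. They were 3 without cells over 20% mitochondrial and 3 from 1 UMI on, and 6 with carry-over taken off. With the main settings, 4 of 84 pairs were higher in ULI than ULC and 21 lower, beside 10% and 16% of all pairs. Pairs higher in ULI than ULC were 2 at resolution 2, 2 with the 8 genes allowed as variable and 2 with at least 50 UMIs. They were 14 with carry-over taken off. Some alternatives compared fewer classes, 8 with at least 50 cells, 10 over clusters filled by every library and 11 at resolution 0.5. Shares over all genes were not computed under the alternatives, so nothing is read from these counts. With at least 500 genes per cell, 5 of 8 genes kept the same highest class in every library. With carry-over taken off, the log2 ratio to control of oligodendrocyte precursors in ULC was -3.01 for Sgk1 and -4.94 for Ddit4, of pericytes -1.50 in ULI and -0.17 in ULC for Sgk1, and of choroid plexus epithelium in ULC -0.56 for Tsc22d3. Over clusters filled by every library, Sgk1 of precursors in ULC was -0.066, and with the mean over cells, Sult1a1 of leptomeningeal fibroblasts in ULC was -0.079. The carry-over taken off also counts markers that both classes express. The cause of these changes was not tested. Over the alternatives, Fkbp5 was higher on both sides in 6 to 10 classes, Errfi1 in 3 to 7, Sgk1 and Sult1a1 in 2 to 5, Tsc22d3 in 1 to 3, Zbtb16 in 0 to 3, and Ddit4 and Per1 in 0 to 1.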
